A study of Mus musculus with 12 samples.

Results

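The comparison described here set mouse embryonic stem (ES) cells without the de novo DNA methyltransferases against wild-type cells after 144 h of mTOR inhibition. It used 4 of the 12 RNA-seq libraries of the study, namely those labelled DNMT3ABKO and KH at 144 h, with 2 libraries of each line, and 15595 of the 54446 listed genes reached a mean of at least 1 TPM (a length-corrected share of a library's transcripts) over these 4 libraries. KH cells, which the study's methods call KH2, are wild type, and DNMT3ABKO cells are a Dnmt3a and Dnmt3b double knockout (Dnmt3a/b DKO). Both lines had received INK128, which blocks the mTOR kinase (mTORi), for the same time, and both had a 0 h and a 72 h group, also with 2 libraries each. The labels put E14 before both line names, whereas the methods describe KH2 and Dnmt3a/b DKO cells that grew over mitomycin-treated feeder cells, with sorting of viable single cells before RNA extraction. Each genotype is 1 line, so the loss of both genes and any other difference between the lines cannot be told apart. The submitters' design text speaks of TET1/2 knockout cells instead, and the labels, which name DNMT3ABKO, were followed. The study states in general that its experiments were repeated independently, but the labels do not tie the replicate numbers to cultures, so the p-values measure the spread between these libraries.

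DNMT3A and DNMT3B add methyl groups to unmethylated CpG sites, DNMT3L assists them without catalytic activity of its own, and DNMT1 with UHRF1 copies existing methylation at replication. In ES cells, promoter methylation is known to hold down a class of germ cell genes, several X-linked testis gene families and some imprinted alleles. Inhibition of mTOR places ES cells in a paused state that resembles embryonic diapause, in which growth and protein synthesis are low while pluripotency is retained. A small share of ES cells in culture transiently expresses genes of the 2-cell embryo, such as Zscan4, under the transcription factor Dux.

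The 4 libraries held between 15195 and 15632 genes at 1 TPM or more, and replicates correlated with r = 0.994 in each line, a value across genes, which are not independent replicates. TPM values are shares of a library and keep no read depth, so the depth is unknown and a change of one gene is relative to all others. The residual SD on the log2 scale was 0.159 in KH and 0.150 in DNMT3ABKO at 144 h, against 0.269 in DNMT3ABKO at 0 h, whose libraries also entered the shared estimate of the spread. The defining ES cell markers were at similar levels in both lines, with Pou5f1 at 1100.2 and 1099 TPM in KH and 1070.3 and 1025 TPM in DNMT3ABKO (log2 difference -0.07, not called). Of the defining markers of macrophages, Adgre1, Csf1r and Ptprc were at or below 0.507 TPM in every library, and the trophoblast marker Elf5 was listed at 0 in 3 of the 4. Other genes of the macrophage list were expressed, with Cd68 at 14.8 and 15.3 TPM in KH and 22.7 and 21.8 TPM in DNMT3ABKO. An exact permutation test of 2 libraries against 2 cannot go below p = 0.333, so all adjusted p-values come from limma over all genes tested, with Benjamini-Hochberg adjustment and the spread shared by the 6 groups of the study.

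The targeted genes were examined first. Dnmt3b (ENSMUSG00000027478.15, mm10 chr2:153649450-153687730) stood at 142 and 147 TPM in the KH libraries and at 12.7 and 13.04 TPM in the DNMT3ABKO libraries (log2 difference -3.39, SE 0.06, adjusted p = 8.44e-10). Dnmt3a (ENSMUSG00000020661.15, chr12:3806007-3914443) stood at 76.3 and 144 TPM in KH and at 21.9 and 16.9 TPM in DNMT3ABKO (log2 difference -2.39, SE 0.28, adjusted p = 0.000179). The groups did not overlap for either gene, and the KH libraries lay much farther apart for Dnmt3a than for Dnmt3b. Both genes kept transcripts in the knockout, whose exons a per-gene TPM cannot tell. Dnmt3c (ENSMUSG00000082079.2), a rodent gene beside Dnmt3b that arose from it and methylates retrotransposon promoters in male germ cells, was at 4.08 and 3.56 TPM in KH and at 0.172 and 0.159 TPM in DNMT3ABKO (log2 difference -2.05, SE 0.11, adjusted p = 2.31e-07), and it can share reads with Dnmt3b.

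Between the lines at 144 h, 4398 of 15595 genes (28.2%) were called at an adjusted p under 0.05, with 1922 (12.3%) higher and 2476 (15.9%) lower in DNMT3ABKO. The called differences had a median size of 0.52 on the log2 scale, and 2097 of the 4398 (47.7%) were below 0.5. Both DNMT3ABKO libraries lay above both KH libraries for 4776 genes (30.6%) and below them for 6352 (40.7%), so groups without overlap were common. The median over all tested genes was -0.04, with quartiles of -0.24 and 0.16. Large differences went mostly one way, and of the 754 called genes with a difference of at least 1, 639 (4.1% of genes tested) were higher and 115 (0.737%) were lower in DNMT3ABKO. Of the 639 higher genes, 475 (74.3%) had a mean under 1 TPM in KH, so they passed the filter on low values through their level in DNMT3ABKO alone and had to differ. Of the 115 lower genes, 33 (28.7%) had a mean under 1 TPM in DNMT3ABKO and passed through KH in the same way. Which direction held more calls depended on the scale. Division of each library by its median ratio shifted the median of all genes by 0.05 and turned the share of higher calls from 43.7% to 53.01%.

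**Figure D1:**
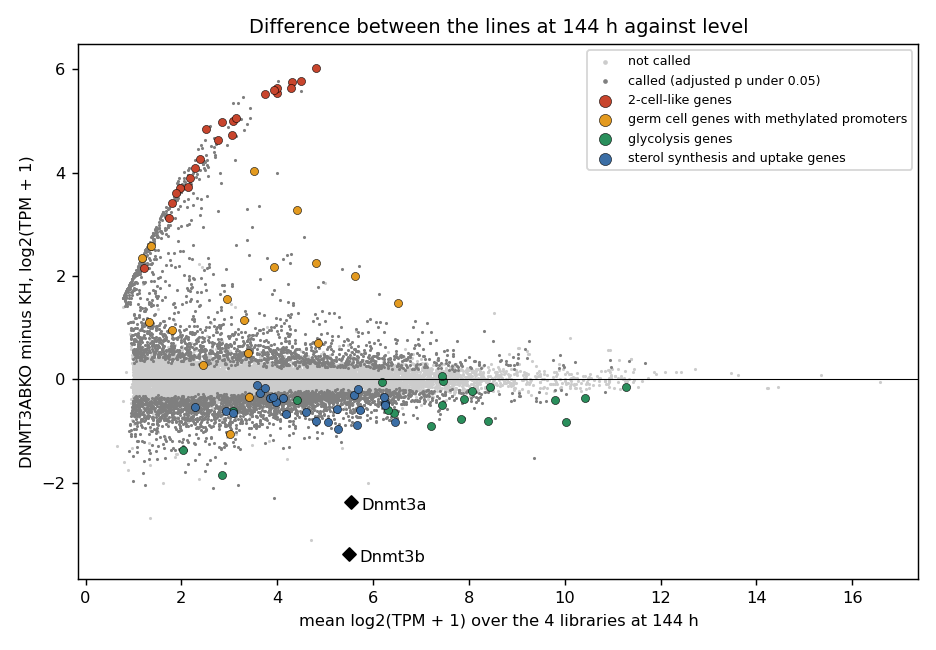
The vertical axis is the log2 difference at 144 h (DNMT3ABKO minus KH) and the horizontal axis the mean log2(TPM + 1) over the 4 libraries, with 1 point for each of 15595 genes, called genes in darker grey and 4 gene lists in colour. The 2-cell-like genes reach 6.02, Dnmt3b lies at -3.39, and the slanted upper edge is made of genes near 0 TPM in KH.

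Genes were then grouped by 34 lists of pathways, gene families and cell type markers, and each list is described by its counts and its median, to be read beside those of all genes tested (12.3% called higher, 15.9% called lower, median -0.04). The lists whose medians lay farthest from 0 were, on the higher side, the 2-cell-like genes (4.85), the Xlr and Mage genes (2.41), the Rhox genes (1.90) and the germ cell genes (1.48), and, on the lower side, trophoblast (-0.90), Hox (-0.81), sterol (-0.52) and glycolysis genes (-0.45). These lists were chosen with earlier results of the data known.

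**Figure D2:**
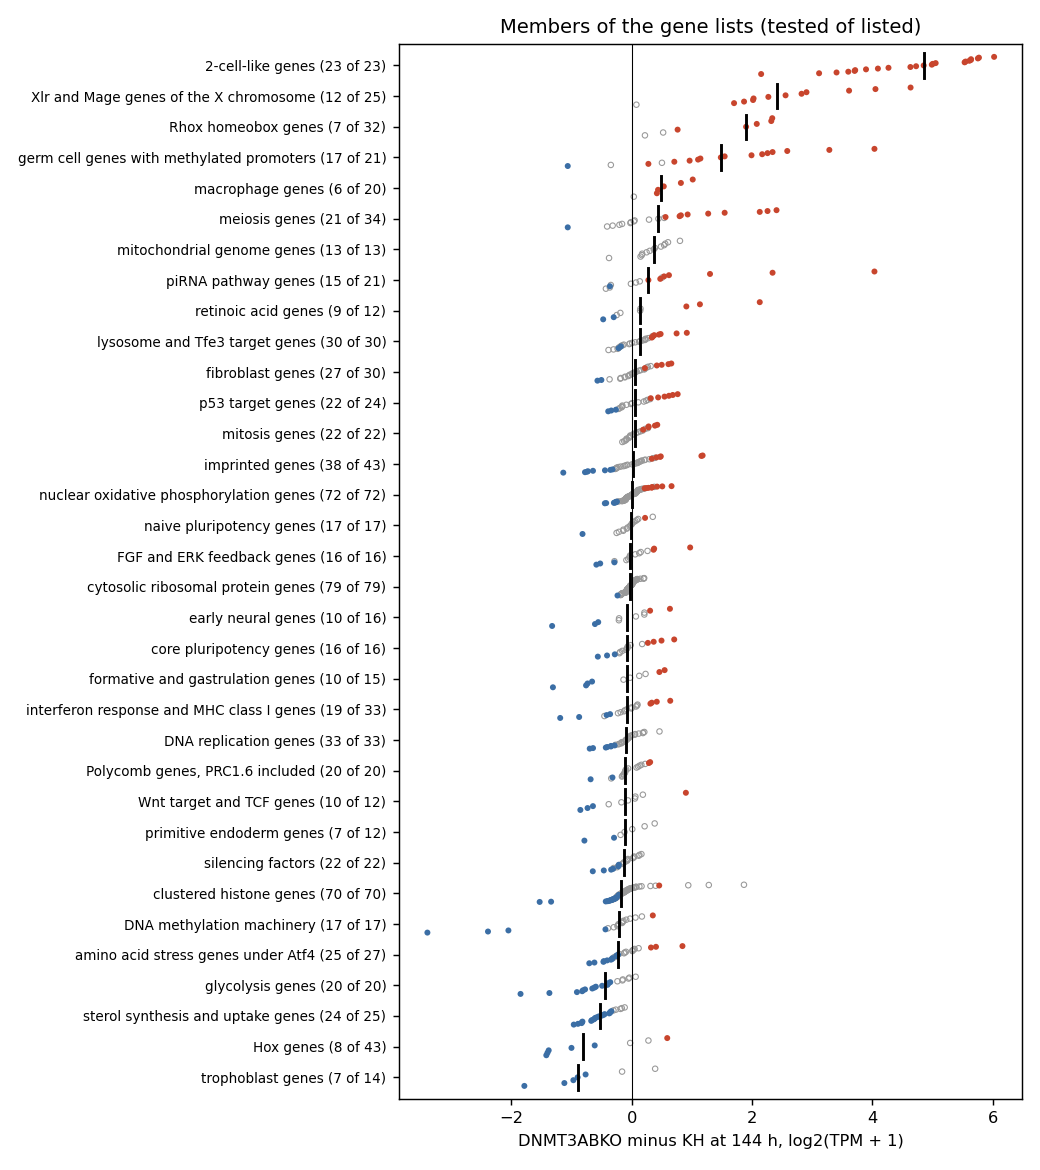
Each point is a tested member of a list, placed by its log2 difference at 144 h (DNMT3ABKO minus KH), filled red if called higher, filled blue if called lower and open if not called, and the black bar is the median of the tested members. All 23 members of the 2-cell-like list and 11 of the 12 tested Xlr and Mage genes are filled red, while 19 of 24 sterol and 14 of 20 glycolysis genes are filled blue.

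Germ cell genes that promoter methylation holds down in ES cells were higher in DNMT3ABKO in most cases. Of 21 listed genes, 17 were tested, 14 were called higher and 1 lower (12.3% and 15.9% over all genes), with a median of 1.48, and 3 of the 17 had a mean under 1 TPM in KH. The list is named for promoters known to be methylated, although no methylation was measured in these libraries. The 250 bases before the transcription start are shown for 4 of the genes that were higher and for Sycp3, which was lower, from RefSeq on GRCm38.p6 (the same coordinates as mm10), 5′ to 3′ on the strand of the gene, with CG dinucleotides in capitals. The regions are chr5:135350045-135350294 (minus strand) for Fkbp6, chr17:50293621-50293870 (minus) for Dazl, chr3:95559427-95559676 (plus) for Hormad1, chr6:18109062-18109311 (minus) for Asz1 and chr10:88459337-88459586 (plus) for Sycp3.
Fkbp6: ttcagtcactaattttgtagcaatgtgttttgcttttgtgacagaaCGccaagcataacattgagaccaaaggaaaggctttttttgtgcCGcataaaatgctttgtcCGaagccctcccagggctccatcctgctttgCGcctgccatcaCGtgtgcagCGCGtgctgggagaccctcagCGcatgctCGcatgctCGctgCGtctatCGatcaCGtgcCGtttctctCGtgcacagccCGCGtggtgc
Dazl: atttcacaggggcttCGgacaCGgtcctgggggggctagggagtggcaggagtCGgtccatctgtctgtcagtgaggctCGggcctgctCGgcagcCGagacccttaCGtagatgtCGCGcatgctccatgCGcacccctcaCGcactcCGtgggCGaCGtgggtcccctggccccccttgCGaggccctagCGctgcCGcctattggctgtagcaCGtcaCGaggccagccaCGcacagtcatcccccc
Hormad1: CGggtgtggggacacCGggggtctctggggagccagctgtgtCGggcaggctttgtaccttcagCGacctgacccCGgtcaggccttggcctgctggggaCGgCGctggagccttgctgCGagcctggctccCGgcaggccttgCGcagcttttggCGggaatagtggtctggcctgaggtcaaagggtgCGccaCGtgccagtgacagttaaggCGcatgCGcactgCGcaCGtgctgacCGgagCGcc
Asz1: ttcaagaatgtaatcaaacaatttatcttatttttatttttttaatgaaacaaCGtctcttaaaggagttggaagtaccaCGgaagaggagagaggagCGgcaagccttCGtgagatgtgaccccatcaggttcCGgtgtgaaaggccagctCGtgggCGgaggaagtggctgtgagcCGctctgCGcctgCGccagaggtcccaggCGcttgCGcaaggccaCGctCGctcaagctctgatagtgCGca
Sycp3: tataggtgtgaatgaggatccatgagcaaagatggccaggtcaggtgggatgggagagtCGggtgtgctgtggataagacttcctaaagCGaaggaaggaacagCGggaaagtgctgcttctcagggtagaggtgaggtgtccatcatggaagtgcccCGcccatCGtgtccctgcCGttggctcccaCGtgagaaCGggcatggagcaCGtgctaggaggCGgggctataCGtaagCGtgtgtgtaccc

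These windows held 17, 20, 19, 15 and 12 CG dinucleotides, in the order printed. All 17 tested genes of the list matched a promoter in the table, and their median was 17 CG dinucleotides, beside 16 over the 9946 tested genes with a promoter (63.8% of those tested, under the 80% set for a comparison) and 6 over all 32851 promoters of the same length. The sequence CACGTG, which reads the same on both strands and is the E-box bound by MYC-family and MiT-family factors, stood in 10 of the 17 windows (58.8%), beside 8.70% for tested genes and 6.02% of all promoters. Of the windows above, those of Fkbp6, Hormad1 and Sycp3 hold it, with its central CG in capitals. GGCGGGA or its reverse complement TCCCGCC, an E2F-like sequence, stood in 5 of the 17 (29.4%), beside 19% for tested genes and 9.75% of all promoters. The list was assembled from genes known for methylated promoters, so these shares describe the list and were not tested. Within it CACGTG did not go with higher calls. Sycp3, which was lower, and Ddx4 and Mael, which were not called, hold it. The members without it, namely Dazl, Tex19.1, Asz1, Rpl10l, Tuba3a, Tuba3b and D1Pas1, were all called higher.

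Fkbp6 (ENSMUSG00000040013.11), a co-chaperone of the piRNA pathway, stood at 2.11 and 1.59 TPM in KH and at 45.4 and 45.5 TPM in DNMT3ABKO, a 24.6-fold ratio of means (log2 difference 4.03, SE 0.15, adjusted p = 1.57e-08). Dazl (ENSMUSG00000010592.9), an RNA-binding protein needed for germ cell development, stood at 6.45 and 5.25 TPM in KH and at 60.4 and 70.9 TPM in DNMT3ABKO (log2 difference 3.28, SE 0.20, adjusted p = 9.90e-07). Neither gene overlapped between the lines, and replicates lay close together beside the distance between groups. Asz1, a piRNA pathway protein of the germ granule, was listed at 0 in both KH libraries and stood at 4.07 and 4.07 TPM in DNMT3ABKO. The testis tubulin gene Tuba3b went from 0.0962 and 0 TPM in KH to 4.94 and 5.64 TPM, and it has a near copy in Tuba3a, which stood at 6.53 and 5.86 TPM in KH and 33.8 and 28.96 TPM in DNMT3ABKO. Tex19.1, which restrains retrotransposons in germ cells and placenta, was already expressed in KH at 53.04 and 54.8 TPM and reached 158 and 147 TPM in DNMT3ABKO (log2 difference 1.48). Rpl10l, a testis form of a ribosomal protein, stood at 24.02 and 23.8 TPM in KH against 95.4 and 101 TPM. Sycp3, a lateral element of the synaptonemal complex, was lower, at 4.37 and 4.88 TPM in DNMT3ABKO against 10.6 and 10.9 TPM in KH (log2 difference -1.06). The germ cell helicase Ddx4 was not called, with 11.2 and 10.8 TPM in KH and 8.01 and 8.87 TPM in DNMT3ABKO.

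The meiosis and piRNA lists, which share members with the germ cell list, were mixed. Of 34 meiosis genes, 21 were tested, 9 were called higher and 1, Sycp3, lower (median 0.44). Stra8, the retinoic acid-induced gatekeeper of meiosis, stood at 18.02 and 18.8 TPM in KH and at 81.7 and 86.1 TPM in DNMT3ABKO (log2 difference 2.13, SE 0.12, adjusted p = 5.34e-07). Hormad1, a protein of the meiotic chromosome axis, stood at 12.1 and 11.4 TPM against 54.96 and 65.3 TPM, and the meiotic cohesin subunit Smc1b at 3.49 and 3.82 TPM against 21.9 and 25.6 TPM. The replicates of each of these genes lay close together beside the distance between the lines. Sycp1, the transverse filament of the synaptonemal complex, was higher as well (3.79 and 3.24 TPM against 11.6 and 12.8 TPM), whereas the recombinase Dmc1 (10.3 and 9.23 TPM against 6.14 and 8.19 TPM) and the cohesin subunit Rec8 (4.71 and 4.75 TPM against 4.56 and 4.74 TPM) were not called. Of 21 piRNA pathway genes, 15 were tested, with 7 called higher and 1, Tdrd12, lower (median 0.28). Beside Fkbp6 and Asz1 they included Gtsf1 (log2 difference 1.30) and Piwil4 (0.62), a PIWI protein of fetal germ cells.

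Families of testis-expressed genes on the X chromosome showed the same direction. Of 32 Rhox homeobox genes, 25 did not reach a mean of 1 TPM. Of the 7 that did, 5 were called higher and none lower (12.3% and 15.9% over all genes), with a median of 1.90. Of these 7, 3 had a mean under 1 TPM in KH and passed the filter through DNMT3ABKO. Rhox5, the founding member of the cluster, stood at 7.95 and 5.79 TPM in KH and at 37.7 and 38.1 TPM in DNMT3ABKO (log2 difference 2.32, SE 0.13, adjusted p = 5.91e-07), and Rhox1 at 1.48 and 0.721 TPM against 8.67 and 10.3 TPM. Rhox6 and Rhox9 were not called, at 1.57 and 1.93 TPM against 3.89 and 2.18 TPM and 2.34 and 2.22 TPM against 2.73 and 2.93 TPM. Of 25 Xlr and Mage genes, 12 were tested, and 11 of them had a mean under 1 TPM in KH. These 11 passed the filter through DNMT3ABKO and had to be higher. All 11 were called so, and the count is a description only. The remaining one, Mageb16, was at 16.04 and 16.01 TPM in KH and 16.4 and 17.6 TPM in DNMT3ABKO. Xlr3a (ENSMUSG00000057836.12) stood at 0.102 and 0.144 TPM in KH and at 26.1 and 27.6 TPM in DNMT3ABKO (log2 difference 4.63, SE 0.12, adjusted p = 2.04e-09), while Xlr4a, Xlr4b, Xlr5a, Xlr5b and Xlr5c were listed at 0 in both KH libraries. Xlr copies can share reads, so they were also summed. The 9 Xlr3, Xlr4 and Xlr5 genes together held 1.03 and 0.705 TPM in KH and 89.3 and 93.3 TPM in DNMT3ABKO.

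Genes of the 2-cell embryo held the highest difference among all genes tested, that of Zscan4f. All 23 members of the list were tested and called higher in DNMT3ABKO, with a median of 4.85 and a range from 2.15 to 6.02. Of the 23, 16 had a mean under 1 TPM in KH, so they passed the filter through DNMT3ABKO and had to be higher, and the count is a description only. Zscan4f (ENSMUSG00000070828.10, chr7:11397915-11402318), a SCAN-domain zinc finger protein known for its part in telomere lengthening, stood at 2.64 and 2.37 TPM in KH and at 222 and 232 TPM in DNMT3ABKO, a 90.4-fold ratio of means (log2 difference 6.02, SE 0.12, adjusted p = 8.44e-10). Of the 12 highest named genes at 144 h, 9 were Zscan4 genes or copies, and the others were Usp17le (5.05), Usp17lb (4.99) and Xlr3a. Because reads can be split between near-identical copies, the 9 Zscan4 genes and copies were summed, and the sum was 15.1 and 11.6 TPM in the KH libraries and 1109.8 and 1161 TPM in the DNMT3ABKO libraries. The same sum over 5 Usp17l deubiquitinase genes was 1.29 and 1.84 TPM in KH and 147 and 159 TPM in DNMT3ABKO, and over 5 Tdpoz genes 0.385 and 0.482 TPM against 32.3 and 30.01 TPM. Replicates within each line were thus far closer to each other than the lines were. Duxf3, which encodes the Dux factor upstream of this programme, was at 0.177 and 0.0834 TPM in KH and had a mean of 8.78 ± 0.315 TPM (SD, n = 2) in DNMT3ABKO (log2 difference 3.11, SE 0.11, adjusted p = 1.09e-08). In bulk RNA, more cells that express these genes and more RNA per expressing cell cannot be told apart.

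Beside these results, the promoters of Zscan4f (chr7:11397665-11397914, plus strand) and Xlr3a (chrX:73097096-73097345, minus strand) are shown for comparison with the germ cell promoters above, in the same format. They held 3 CG dinucleotides each, and neither motif was found in them.
Zscan4f: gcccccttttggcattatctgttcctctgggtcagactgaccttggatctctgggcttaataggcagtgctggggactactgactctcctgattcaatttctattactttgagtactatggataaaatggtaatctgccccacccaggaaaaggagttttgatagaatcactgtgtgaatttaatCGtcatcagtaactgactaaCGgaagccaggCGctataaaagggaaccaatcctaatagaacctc
Xlr3a: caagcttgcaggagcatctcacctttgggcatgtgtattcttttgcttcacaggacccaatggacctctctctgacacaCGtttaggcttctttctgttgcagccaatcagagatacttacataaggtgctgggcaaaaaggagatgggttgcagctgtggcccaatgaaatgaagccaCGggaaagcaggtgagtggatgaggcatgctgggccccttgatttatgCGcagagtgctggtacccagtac

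Only 14 of the 23 2-cell-like genes and 269 of the 639 genes higher by at least 1 (42.1%) matched a promoter, so a comparison of CpG content over these sets was void and was not made. All 12 tested Xlr and Mage genes matched, and their promoters had a median of 6 CG dinucleotides, beside 16 for tested genes with a promoter and 6 for all promoters.

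Some of the genes that were higher by at least 1 lay near each other. With neighbours taken as genes at most 500 kb apart and at least 6 genes per group, a rule chosen after the values were seen and not tested, 218 of the 639 higher genes (34.1%) fell into 18 groups. The 115 lower genes are too few to be set beside them. The groups differ in kind, and that of chromosome Y holds single genes such as Ddx3y and Uty. Tested genes are those that passed the filter, and 475 of the 639 passed it through DNMT3ABKO alone. The share of tested genes called within a span is therefore partly set by the filter. The group with the most genes spanned chr12:87480108-88324026, with 26 tested genes, all 26 called higher by at least 1 (median 4.42, BB287469 among them). It was followed by groups of 24 genes on chromosome 5, of 23 on chromosome 3 around the Tdpoz genes, of 15 on chromosome 7 that are mostly Obox pseudogenes, and of 14 of the 49 tested genes in a span on chromosome 4, with the zinc finger genes Zfp600, Rex2 and Zfp993. The Zscan4 group on chromosome 7 held 13 genes, that of Tcstv1 and Tcstv3 on chromosome 13 held 12, and that of the Pramef genes on chromosome 4 held 12. Members of gene families can be near copies of each other, so one source of reads can count in several of them. Of gene types, 323 of the 639 higher genes (50.5%) had predicted Gm-number names, against 15.97% of all tested genes, and 67 (10.5%) were unprocessed pseudogenes, against 1.04%.

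**Figure D3:**
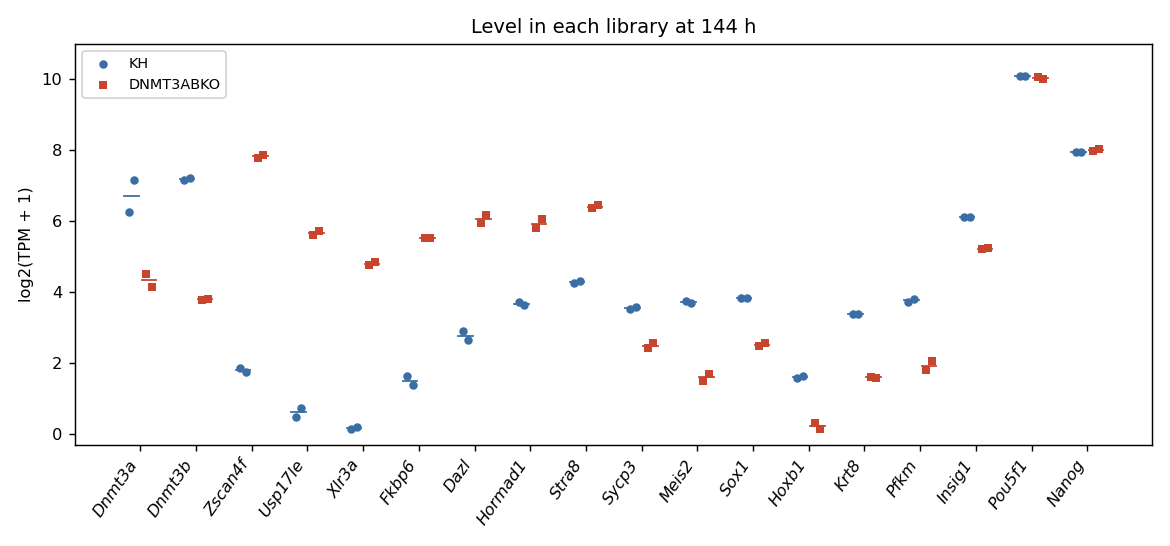
Points are log2(TPM + 1) in each library at 144 h, with KH as blue circles, DNMT3ABKO as red squares and a line at the mean of each pair. The lines do not overlap for any gene shown, but they differ by only -0.07 for Pou5f1 and 0.06 for Nanog, which were not called, and the KH libraries of Dnmt3a lie visibly apart.

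Among the other genes of DNA methylation, few differed. Of 17, 4 were called lower, of which 3 were Dnmt3a, Dnmt3b and Dnmt3c, and 1 was higher. Dnmt3l, the cofactor of both missing enzymes, was higher (354 and 359 TPM in KH against 456 and 454 TPM in DNMT3ABKO, log2 difference 0.35), and the methyl-CpG-binding protein Mbd2 was lower (-0.43). Dnmt1 (138 and 129 TPM against 124 and 126 TPM), its partner Uhrf1 (218 and 216 TPM against 226 and 228 TPM), and the demethylases Tet1 (-0.23) and Tet2 (-0.30) were not called. Of 22 factors that silence retroelements and imprints, none was called higher and 6 lower (2 and 5 under median-ratio scaling), with a median of -0.13. The lower ones included the H3K9 methyltransferases Suv39h1 (-0.65), Ehmt1 (-0.46) and Ehmt2 (-0.34), while Trim28 (1155 and 1194 TPM against 1298 and 1271 TPM), Setdb1 and Zfp57 were not called. Of 20 Polycomb genes, PRC1.6 included, 2 were called in each direction, with the E2F partner Tfdp1 lower (-0.68) and the CpG island reader Kdm2b higher (0.31). Without 1 library, 3 to 5 silencing factors were lower, and 1 Polycomb gene was called in each direction.

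Imprinted genes went both ways. Of 43, 38 were tested, with 6 higher and 8 lower, not far from the shares over all genes (12.3% and 15.9%). Their median of 0.02 fell below 0 without 1 library of either line (lowest -0.05). Mest (0.432 and 0.314 TPM in KH against 2.07 and 2.14 TPM in DNMT3ABKO) and Grb10, an adaptor that restrains growth signalling (40.2 and 39.6 TPM against 89.8 and 90.8 TPM), were higher by more than 1 on the log2 scale, whereas Sfmbt2 (6.79 and 6.29 TPM against 2.24 and 2.64 TPM) was lower by more than 1. Mest passed the filter through DNMT3ABKO and had to be higher. Zdbf2 (-0.77) was lower, and H19 (9.99 and 9.86 TPM against 10.7 and 11.9 TPM) and Peg3 (-0.27) were not called. Without 1 library, 2 or 3 imprinted genes were higher and 5 to 7 lower.

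Most naive pluripotency genes were close in both lines, while core pluripotency genes were called in both directions. Of 17 naive genes, 1 was called higher and 1 lower, with a median of -0.02 that turned positive (0.03) under median-ratio scaling. Nanog stood at 248 and 245 TPM in KH and at 251 and 263 TPM in DNMT3ABKO, Esrrb at 378 and 313 TPM against 349.9 and 329 TPM, and Klf4 at 155 and 150.3 TPM against 148 and 158 TPM, none of them called. Dppa3, a maternal factor that shields methylation in the zygote, was lower (23.5 and 27.8 TPM against 13.6 and 14.6 TPM, adjusted p = 0.000283). The call of Zfp42 (0.22) was lost without any 1 of the 4 libraries, at adjusted p of 0.113 to 0.153. Of 16 core genes, 4 were higher and 3 lower, against 12.3% and 15.9% over all genes. Zfp296 (0.50) and the Nodal co-receptor Tdgf1 (0.37) were higher, and Utf1 (-0.56) and Lin28a (-0.41) lower. Without 1 library, 1 to 3 core genes were higher. Dppa2, which with Dppa4 acts upstream of Dux, stood at 112 and 113 TPM in KH and 180.0 and 188 TPM in DNMT3ABKO (log2 difference 0.71, adjusted p = 0.0111), with adjusted p of 0.0485 to 0.0664 when 1 library was left out.

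Several genes of embryonic patterning and lineage entry were lower in DNMT3ABKO. The homeobox gene Meis2 (log2 difference -2.11, 12.3 and 11.9 TPM in KH against 1.82 and 2.25 TPM in DNMT3ABKO), a partner of Hox proteins, and Prtg (-2.05, 18.8 and 16.4 TPM against 3.48 and 3.47 TPM), a receptor of the early neural tube, were among the 12 lowest named genes. Of 43 Hox genes, 8 passed the filter, and 5 of these were called lower and 1, Hoxd13, higher (median -0.81). Without 1 library 4 were lower and 0 or 1 higher, the higher call being lost without each library but KH replicate 1, and with the filter over all 12 libraries 3 of 6 were lower. Hoxb1 stood at 1.98 and 2.13 TPM in KH and at 0.229 and 0.0923 TPM in DNMT3ABKO, and Hoxb2 at 2.06 and 2.89 TPM against 0.532 and 0.0894 TPM. All these Hox levels were low, and 4 of the 8 tested genes had a mean under 1 TPM in DNMT3ABKO, so they passed the filter through KH. The neural factor Sox1 was lower (13.3 and 13.4 TPM against 4.54 and 4.95 TPM, log2 difference -1.32, SE 0.09, adjusted p = 2.97e-06), and it lies on chromosome 8, described further on. Of 10 tested early neural genes, 3 were lower and 2, Tubb3 among them (0.64), were higher. Pax6 (-0.61) and Olig2 (-0.55) lost their calls without any 1 library, at adjusted p of 0.0655 to 0.117 and 0.0674 to 0.0861, and 1 early neural gene was then called in each direction. Of 10 tested formative and gastrulation genes, 4 were lower and 2 higher. Brachyury, T, stood at 2.34 and 2.25 TPM in KH and 0.282 and 0.382 TPM in DNMT3ABKO, so it passed the filter through KH and had to be lower. The Nodal antagonist Lefty1 stood at 94.5 and 106 TPM against 62.7 and 55.03 TPM, while Nodal itself was higher (0.55).

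Among extraembryonic genes, 5 of 7 tested trophoblast genes were lower and none was higher (15.9% and 12.3% over all genes), with a median of -0.90. They were the simple epithelial keratins Krt8 (9.45 and 9.46 TPM in KH against 2.07 and 2.01 TPM in DNMT3ABKO, log2 difference -1.78, SE 0.12, adjusted p = 1.83e-06) and Krt18 (-0.97), the factors Tead4 (-1.12) and Tfap2c (-0.90), and the placental homeobox gene Esx1 (-0.76). The other 7 of the 14 trophoblast genes, among them the defining Cdx2, Elf5 and Gata3, were below the filter in these libraries. Of the 7 tested, 1 had a mean under 1 TPM in DNMT3ABKO and passed the filter through KH. Of 7 tested primitive endoderm genes, 2 were lower (1 to 4 without 1 library). Dab2, an endocytic adaptor, stood at 6.85 and 5.39 TPM against 3.32 and 2.92 TPM, whereas of the defining factors Sox17 was not called and Gata6 was below the filter. The remaining genes among the 12 lowest were Mcf2 (-2.30), a guanine nucleotide exchange factor, Car4 (-1.86), a carbonic anhydrase of the cell surface, Enpp2 (-1.82), which makes lysophosphatidic acid, Gstm2 (-1.80), a glutathione transferase, and Pfkm, described with glycolysis. Enpp2, with a mean of 0.223 TPM in DNMT3ABKO, passed the filter through KH and had to be lower. Pagr1b, which had been higher in DNMT3ABKO at 0 h (1.85), was listed at 0 in both DNMT3ABKO libraries and stood at 1.74 and 4.68 TPM in KH, but its copy Pagr1a, with 2.14 and 10.6 TPM in KH and 1.32 and 5.12 TPM in DNMT3ABKO, overlapped between the lines, and the copies can share reads.

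Signalling genes differed in single members. Of 10 tested Wnt target and TCF genes, 3 were lower, namely Tcf7l2 (-0.85), Lef1 (-0.73) and Sp5 (-0.64), and the Wnt deacylase Notum was higher (23.6 and 22.5 TPM in KH against 42.8 and 44.99 TPM in DNMT3ABKO). Of 16 FGF and ERK feedback genes, 3 were called in each direction (2 or 3 higher and 1 or 2 lower without 1 library), and the median of -0.03 turned to 0.02 under median-ratio scaling. The immediate early factor Egr1 was higher (33.4 and 35.8 TPM against 68.5 and 69.2 TPM) and the phosphatase Dusp4 lower (-0.52). Of 9 tested retinoic acid genes, 3 were higher and 2 lower. Beside Stra8, the higher ones were Aldh1a2, the enzyme that makes retinoic acid (2.23 and 2.23 TPM against 6.08 and 6.11 TPM), and the receptor Rxra (6.11 and 5.77 TPM against 12.1 and 11.98 TPM).

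Most genes of glycolysis and of sterol synthesis were lower in DNMT3ABKO. Of 20 glycolysis genes, 14 were called lower and none higher, against 15.9% of all genes tested, with a median of -0.45, and the summed level was 9370 and 9340 TPM in the KH libraries against 7146 and 7229.8 TPM in DNMT3ABKO. Pfkm, the muscle form of phosphofructokinase, stood at 12.3 and 13.1 TPM in KH and at 2.50 and 3.14 TPM in DNMT3ABKO (log2 difference -1.85, SE 0.10, adjusted p = 2.47e-07), and the liver form Pfkl was lower by less (-0.65), while Pfkp was not called (69.9 and 76.3 TPM against 68.7 and 72.4 TPM). Triose phosphate isomerase Tpi1 went from 196 and 208 TPM to 108 and 106 TPM, and enolase Eno1 from 1451 and 1329 TPM to 793 and 778 TPM. The lactate dehydrogenase Ldha (447 and 449 TPM against 254 and 257 TPM) and Pgk1 (299.7 and 296 TPM against 177 and 171 TPM) did not overlap between the lines either. The glucose transporters Slc2a1 (-0.04) and Slc2a3 (-0.15) and the hexokinase Hk2 (0.07) were not called. With any 1 library left out, 13 to 14 glycolysis genes were called lower.

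Of 24 tested sterol genes, 19 were called lower and none higher (15.9% and 12.3% over all genes), with a median of -0.52. Insig1, which retains the SREBP escort protein in the endoplasmic reticulum, stood at 68.2 and 68.4 TPM in KH and at 36.1 and 36.6 TPM in DNMT3ABKO (log2 difference -0.89, SE 0.12, adjusted p = 0.000363). The synthesis enzymes Hmgcs1 (119 and 113 TPM against 64.8 and 64.8 TPM), Cyp51 (-0.83) and Msmo1 (-0.82) were lower, and so was Srebf2, the transcription factor of the pathway (-0.49). Acat2 (-0.19) and Nsdhl (-0.12) were not called. Without 1 library, 13 to 16 sterol genes were called lower.

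**Figure D4:**
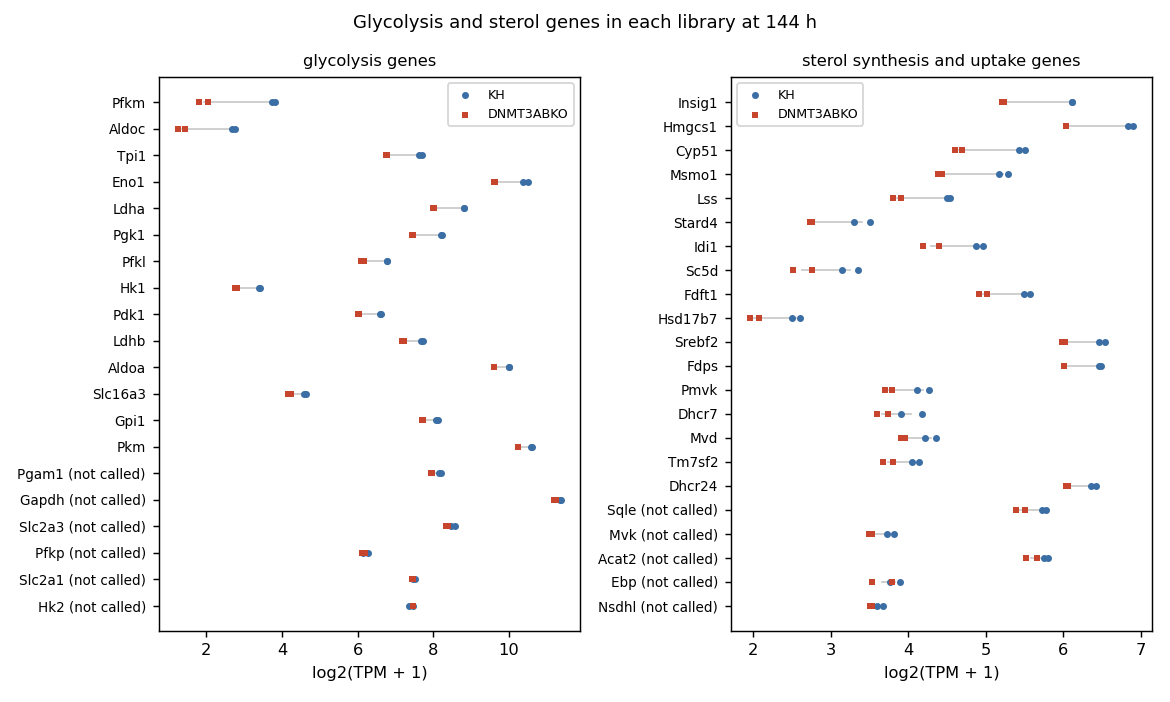
Each row is a gene and each point a library at 144 h on the log2(TPM + 1) scale, with KH in blue, DNMT3ABKO in red and a grey line between the means; genes are ordered from the lowest log2 difference at the top. Some sterol genes are not drawn, and each called gene that is drawn has both DNMT3ABKO libraries to the left of both KH libraries.

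Other growth and stress genes showed smaller differences. Of 25 tested amino acid stress genes under Atf4, 11 were lower and 3 higher (15.9% and 12.3% over all genes), with a median of -0.23. The seryl-tRNA synthetase Sars (113 and 114 TPM in KH against 72.4 and 74.9 TPM in DNMT3ABKO) and Trib3 (-0.70) were lower, Ddit3 was higher (12.3 and 13.5 TPM against 20.6 and 27.8 TPM), and Atf4 itself was not called (-0.09). Without any 1 library, 4 or 5 were called lower. Of 30 lysosome and Tfe3 target genes, 8 were higher and 2 lower (12.3% and 15.9% over all genes), against 13 and 0 under median-ratio scaling, and 4 or 5 were higher without 1 library. The autophagy receptor Sqstm1 was among them (108 and 107 TPM against 209 and 198 TPM, log2 difference 0.92, SE 0.06, adjusted p = 2.15e-06), as were Gpnmb (0.75) and the hydrolase Glb1 (0.48). At 72 h Gpnmb had been called lower (-0.88). Of 72 nuclear oxidative phosphorylation genes, 9 were higher and 7 lower (12.3% and 15.9% over all genes), with a median of 0.01. Without 1 library, 4 to 6 of them were higher and 1 to 4 lower. The 13 genes of the mitochondrial genome had a median of 0.37 and none was called, whereas 10 were higher and 1 lower with only the 4 libraries at 144 h, and 7 and 1 without both DNMT3ABKO libraries at 0 h. Their sum, 17577 and 18595 TPM in KH against 21238 and 24132 TPM in DNMT3ABKO, differed more between the DNMT3ABKO replicates than between the KH replicates. Of 79 cytosolic ribosomal protein genes, 1 was lower and none higher with a median of -0.03, and under median-ratio scaling 2 were higher and 0 lower with a median of 0.02. With only the 4 libraries at 144 h, 11 ribosomal protein genes were lower and 3 higher, and without both DNMT3ABKO libraries at 0 h 10 and 2.

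Of 33 DNA replication genes, 7 were lower and none higher (8 and 3 under median-ratio scaling), with the ribonucleotide reductase subunit Rrm2 at 142 and 146 TPM in KH and 87.8 and 89.7 TPM in DNMT3ABKO. The next 3, Gins2 (-0.64), Cdt1 (-0.43) and Mcm5 (-0.40), lie on chromosome 8, and 4 replication genes were lower when chromosomes 8, X and Y were left out. Of 22 mitosis genes, 5 were higher and none lower, among them the survivin gene Birc5 (0.39), with 2 or 3 higher without 1 library and 9 under median-ratio scaling. Of 22 tested p53 target genes, 6 were higher and 3 lower (3 or 4 and 0 or 1 without 1 library), with the apoptosis gene Pmaip1 at 55.2 and 54.4 TPM against 85.9 and 91.3 TPM and Ccng1 at 60.5 and 61.03 TPM against 91.97 and 95.8 TPM. Of 70 clustered histone genes, 19 were lower and 1 higher, with 5 to 14 lower without 1 library and 33 lower with only the 4 libraries at 144 h, where 11 replication genes were lower and 3 higher. Near-identical histone copies can share reads, so single histone genes such as Hist1h2br (-1.53) are uncertain.

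Markers of other cell types were compared because feeders were present in culture. Of 27 tested fibroblast genes, 5 were higher and 2 lower, with a median of 0.06. The summed level of all 30 listed fibroblast genes was 230 and 224 TPM in the KH libraries against 245 and 236 TPM in DNMT3ABKO. The defining collagens Col1a1 (10.7 and 8.63 TPM against 10.7 and 9.85 TPM) and Col3a1 (2.66 and 2.81 TPM against 2.86 and 2.90 TPM) were not called. Of 20 macrophage genes, 6 were tested, and 5 of them were higher (2 to 4 without 1 library). The sum over all 20 was 43.4 and 41.99 TPM in KH against 64.7 and 60.9 TPM in DNMT3ABKO. Lyz2 (4.21 and 3.66 TPM against 8.85 and 9.05 TPM) and Cd14 (0.711 and 0.567 TPM against 2.10 and 1.69 TPM) were higher. In KH 2 of the 6 had a mean under 1 TPM, Cd14 among them, and passed the filter through DNMT3ABKO. The median line difference of the 6 was -0.27 at 0 h and -0.69 at 72 h, below 0 at both. At 72 h Lyz2 (-0.68) and Cd14 (-0.69) were called lower. The part of other cell types in the line differences was not tested. Of 19 tested interferon response and MHC class I genes, 4 were called in each direction (2 or 3 higher and 3 lower without 1 library). Oasl2 (-1.19) and the immunoproteasome subunit Psmb8 (-0.87) were lower and H2-D1 (0.42) was higher. In DNMT3ABKO 3 of the 19 had a mean under 1 TPM, Oasl2 and Psmb8 among them. These passed the filter through KH and had to be lower.

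Gains and losses in mean TPM were ranked among called genes without overlap. Predicted genes, clones, small RNAs, mitochondrial genes and clustered histones were left out. Hist1h2br, so left out, went from 1083 and 1135 TPM in KH to 333 and 443 TPM in DNMT3ABKO, a larger loss than any ranked below. The largest gains in the ranking were those of Npm1, Hspa8, Actg1, Eif4a1 and Eif2s2. The ribosome assembly factor Npm1 went from 2954 and 2909 TPM in KH to 3477 and 3778 TPM in DNMT3ABKO, and the chaperone Hspa8 from 2307 and 2307 TPM to 2875 and 3006 TPM. These were differences of at most 0.38 on the log2 scale except for the initiation factor Eif2s2 (470.2 and 478 TPM against 761 and 818 TPM, log2 difference 0.73, SE 0.08, adjusted p = 0.000123). Without 1 library the adjusted p was 0.0814 to 0.226 for Npm1, 0.105 to 0.158 for Eif4a1, 0.0401 to 0.0752 for Hspa8 and 0.0354 to 0.0562 for Actg1. The largest losses were those of the glycolysis genes Eno1, Pkm (1543 and 1548 TPM against 1204 and 1212 TPM) and Aldoa (1025 and 1029.8 TPM against 774 and 781 TPM), of the ribosomal protein gene Rpl13 (1999 and 1987 TPM against 1741 and 1622 TPM), which lies on chromosome 8, and of the cytokine gene Mif (-0.43). The calls of Rpl13 and Mif did not hold throughout, with adjusted p of 0.0338 to 0.131 and of 0.114 to 0.161 without 1 library, and Rpl13 reached 0.0689 under median-ratio scaling.

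The line differences at 144 h were set beside those of the same lines at 0 and 72 h, which rest on other libraries but share the estimate of the spread. With the same 15595 genes, 1382 (8.86%) were called between the lines at 0 h and 3105 (19.9%) at 72 h. Calls in the same direction at 144 h and 0 h numbered 846, which is 19.2% of the calls at 144 h and 61.2% of those at 0 h, and those at 144 h and 72 h numbered 1993 (45.3% and 64.2%). Of the 639 genes higher by at least 1 at 144 h, 321 (50.2%) were also called higher at 0 h and 567 (88.7%) at 72 h, and of the 115 lower genes 46 (40%) and 61 (53%) were called lower. The difference between the line difference at 144 h and that at 0 h was tested directly, and 1581 genes (10.1%) were called, 946 with a higher and 635 with a lower value at 144 h.

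The 2-cell-like genes were the list with the widest change over time. Their median line difference on the log2(TPM + 1) scale was 1.69 before treatment, 2.98 after 72 h and 4.85 after 144 h. For all 23 members the difference from 0 h was called, but 16 of them had passed the filter through DNMT3ABKO at 144 h. The test contains the value at 144 h, so the filter favours called increases for genes low in KH, also in the lists that follow. For Usp17lb the line difference was 1.52 at 0 h and 4.99 at 144 h. The Zscan4 sum had been 2.94 and 4.25 TPM in KH and 89.1 and 108 TPM in DNMT3ABKO at 0 h. At 72 h it was 1.19 and 1.33 TPM in KH and 244 and 241 TPM in DNMT3ABKO. The KH sum was thus higher at 144 h (15.1 and 11.6 TPM) than at 72 h as well. Values of log2(TPM + 1) understate ratios where KH is near 0, so the rise of the median is not a rise of the ratio at each step. Of the Xlr and Mage genes, 9 of the 12 tested had a called increase of the line difference over 0 h, and of the germ cell genes 8 of 17. Fkbp6 was not among them, with a line difference of 4.01 at 0 h and 4.03 at 144 h, nor was Hormad1 (2.21 and 2.26), whereas Dazl went from 1.70 to 3.28 (adjusted p of the difference = 0.00608). Sterol genes had a median line difference of -0.06 at 0 h, where 1 was called higher and none lower, and for 13 of 24 the difference from 0 h was called, all toward lower values at 144 h. Glycolysis genes had a median of -0.23 at 0 h with 7 called lower and 2 higher, and 8 of 20 had a called difference toward lower values. Meis2 (-0.14 at 0 h and -2.11 at 144 h, adjusted p of the difference = 0.00021) and Sox1 (0.03 and -1.32, adjusted p = 8.00e-05) had a line difference near 0 before treatment that was called lower at 144 h. Krt8 (-1.80 and -1.78), Mcf2 (-2.32 and -2.30) and T (-1.40 and -1.31) had similar line differences at both times, with no called difference between them.

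**Figure D5:**
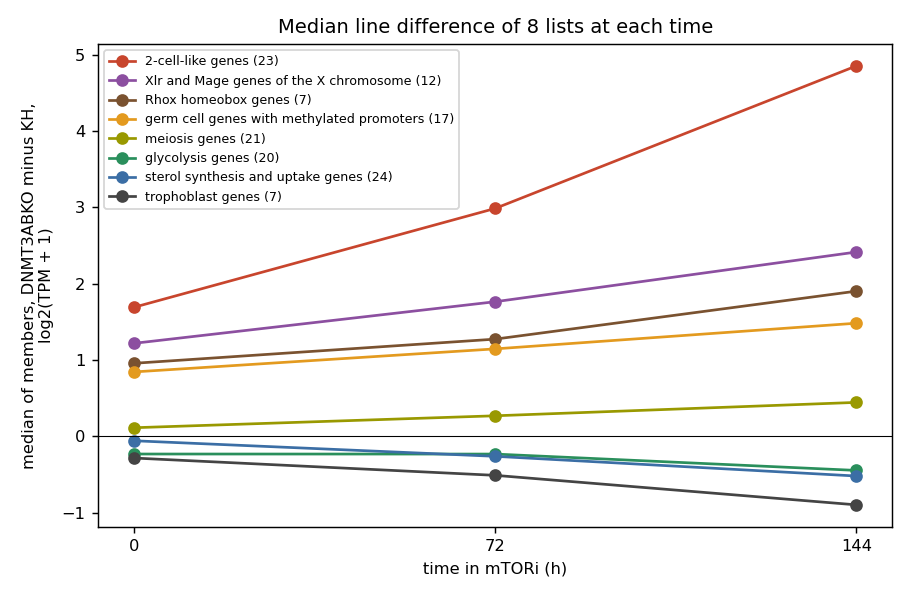
The vertical axis is the median log2 difference between the lines (DNMT3ABKO minus KH) over the tested members of 8 lists, and the horizontal axis is the time in mTORi, with 2 libraries per line at each time. The 2-cell-like genes go from 1.69 to 4.85 and the sterol genes from -0.06 to -0.52, while no error is drawn because each point is a median over genes.

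Differences also followed chromosomes. On chromosome 8, 220 of 787 tested genes were lower and 54 higher (15.9% and 12.3% over all genes). The median line difference there was -0.17 at 144 h, beside -0.12 after 72 h and -0.14 before treatment. Beside Sox1, Gins2, Cdt1, Mcm5 and Rpl13, the named genes Tfdp1, Dusp4, Zfp42 and Tubb3 lie there, of which Zfp42 and Tubb3 were higher. The medians of the other autosomes lay between -0.06 and -0.01 at 144 h. On chromosome Y, 8 of 11 tested genes were higher and none lower (12.3% and 15.9% over all genes). Ddx3y stood at 7.86 and 6.26 TPM in KH and at 39.8 and 43.4 TPM in DNMT3ABKO, Eif2s3y at 14.8 and 15.6 TPM against 56.9 and 61.4 TPM and Uty at 7.09 and 7.60 TPM against 23.2 and 30.4 TPM. The Y-linked line difference was present before treatment, at 2.05 for Ddx3y and 1.15 for Eif2s3y at 0 h. Without the genes of chromosomes 8, X and Y, 3925 of 14228 genes were called, 1754 higher and 2171 lower. A difference in chromosome content between the lines was not tested.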

How the data were processed

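RNA-seq was made from sorted mouse ES cells with a ribosomal RNA depletion kit (KAPA HyperPrep with RiboErase). The authors trimmed reads with cutadapt, aligned them to mm10 with STAR and deposited TPM values per gene, which they computed with StringTie on GENCODE VM19; the submitters' processing notes give cutadapt 2.4, STAR 2.7.3a and StringTie 2.0. TPM values have the same sum in every library and keep no counts, so read depth and its precision are unknown and no count model was run. The study added ERCC control RNAs and normalized its own expression values to them. The values used here carry no such scaling, so a change in total RNA between lines or times does not show in them.

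Samples were grouped by the line and time in their labels. Rows that repeat a gene identifier were summed, values were taken as log2(TPM + 1), and genes were kept when the 4 libraries at 144 h averaged 1 TPM or more. All 12 libraries in 6 groups entered 1 linear model in limma 3.58.1 (R 4.3.3) with a mean-variance trend, with 6 residual degrees of freedom, and genes were called at a two-sided Benjamini-Hochberg adjusted p under 0.05. Fold changes on this scale understate those of low genes. The difference between the line differences at 144 h and 0 h was a contrast of the same model. On simulated data with 200 of 15595 genes changed by 1 on the log2 scale between the lines at 144 h, 168 (84%) were recovered and 3.45% of calls were false.

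The genes, lists and tests were chosen with earlier results of these data known. Genes named are Dnmt3a, Dnmt3b and Dnmt3c, the 12 highest and 12 lowest called differences without overlap (predicted genes, clones, small RNAs and clustered histones left out), up to 4 called members per list, and members given as not called. The 5 largest gains and losses in mean TPM were named too, with the same genes left out. Further members were named for their role after their values were seen. Promoters are 250 bases before the start in RefSeq. Alternatives were another pseudocount, other filters, median-ratio scaling, fewer libraries, a replicate block, a minimum change and the removal of chromosomes 8, X and Y. Values were handled in Python 3.11.15. Some list members are counted but not reported here by name.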

Additional observations from a re-analysis of the deposited data

Results flagged for a closer look

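For 19 of 24 named genes, the 12 highest and the 12 lowest called at 144 h with predicted genes, clones, small RNAs and clustered histones left out, the line difference at 144 h (DNMT3ABKO minus KH, log2) differed from that at 0 h by the direct test in limma. The 24 were picked by their value at 144 h, which this test contains, so the choice itself favours such calls. The call was held by 10.1% of all tested genes. In the same direction it was held by 534 of the 639 genes higher by at least 1 (83.6%) and 67 of the 115 lower (58.3%). The 9 Zscan4 genes and copies had differences that were larger at 144 h by 2.62 (Zscan4f), 2.53 (Zscan4e), 2.51 (Zscan4c), 2.43 (Zscan4b), 2.60 (Zscan4-ps2), 2.54 (Zscan4d), 2.61 (Zscan4a), 2.67 (Zscan4-ps3) and 2.66 (Zscan4-ps1), and these copies can share reads. The value was 2.87 for Usp17le, 3.47 for Usp17lb and 0.97 for Xlr3a. Toward lower values at 144 h it was -1.97 for Meis2, -1.49 for Prtg, -1.39 for Car4, -1.41 for Pfkm, -1.05 for Enpp2 and -1.60 for Gstm2. Pagr1b had the value -3.83, with a copy, Pagr1a, that was not called. The other 5 genes, Dnmt3a, Dnmt3b, Dnmt3c, Mcf2 and Krt8, had no called difference between the times.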

How the results depend on the processing

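The count of called genes was 4398, and it was 4264 with a pseudocount of 0.1 TPM, 4166 with the filter over all 12 libraries, 5159 with median-ratio scaling, 5696 with only the 4 libraries at 144 h, 6011 without both DNMT3ABKO libraries at 0 h and 5480 with no filter, where 2929 genes were higher. Without 1 library at a time, each line with 1 library then being assumed to vary like the other groups, 2626 to 2750 genes were called, 1317 to 1388 higher and 1299 to 1400 lower, and 982 to 1126 had a called difference from 0 h; the cause was not tested. With a minimum difference of 1, fixed by construction to be stricter, 754 genes were called, 639 higher and 115 lower, and 609 for the difference from 0 h. With a replicate block, 4451 genes were called (1962 higher, 2489 lower), and 1570 for the difference from 0 h; same-numbered libraries of both lines deviated together with r = 0.33 at 0 h, -0.09 at 72 h and 0.03 at 144 h, so the numbers were not taken as pairs, and no named gene lost its call with the block. Of 143 named genes, 27 lost the call without at least 1 library and 10 without any 1 of the 4, and no setting reversed one. With 2 libraries per line and TPM without depth, small differences and low genes are the least certain.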
